A study of Mus musculus with 5 samples.

Results

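The genes described here encode homeobox transcription factors of the sine oculis family (gene symbols Six2, Six4 and Six5) and of the Iroquois family (Irx1 to Irx6). Of 9 listed symbols, 8 were present among the 30840 features of the deposited table, namely Six2, Six4, Six5, Irx1, Irx2, Irx3, Irx4 and Irx5, while Irx6 was not analysed here. Members are defined by gene symbol. Hair follicle stem cells of mouse back skin gave 5 libraries of polyadenylated RNA, made to compare cells with and without induced loss of the catalytic core of Polycomb repressive complex 1 (PRC1), which places ubiquitin on histone H2A. The PRC1 i2KO group (3 libraries, numbered 1 to 3) had the genotype K15-CrePR1:Ring1a-/-, Ring1bflox/flox, and the Control group (2 libraries, numbered 2 and 3) had the genotype Ring1a-/-, Ring1bflox/flox. Both groups therefore lacked Ring1a and carried loxP-flanked Ring1b, both were treated topically with 1% RU-486 every day for 10 days starting at postnatal day 50, and both were taken at postnatal day 70. K15-CrePR1, present in the PRC1 i2KO group alone, drives a hormone-dependent Cre from the keratin 15 promoter and is switched on by RU-486, so the transgene and the deletion cannot be told apart. The sort took CD34-positive cells with high α6-integrin that were EpCAM-positive and lacked Sca1, 50000 per library.

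Sine oculis proteins bind DNA through a homeodomain that sits beside a conserved protein-interaction domain, and they work with EYA coactivators and DACH cofactors in organ formation. IRX (Iroquois) proteins carry a homeodomain of the TALE class, which holds an extra loop of amino acids, and in mammals their genes lie in 2 clusters. The IrxA cluster holds Irx1, Irx2 and Irx4, and the IrxB cluster holds Irx3, Irx5 and Irx6. In embryonic stem cells many homeobox genes with CpG-rich promoters are bound by Polycomb complexes and kept silent.

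Library totals ranged from 11626006 counts (Control 3) to 43307694 counts (PRC1 i2KO 2). The mitochondrial ribosomal share of counts was 29.7%, 21.4% and 32.0% in PRC1 i2KO 1, 2 and 3, against 16.7% and 22.6% in Control 2 and 3. Markers of the labelled cell type, such as Krt15 and Krt5, were abundant in each library, with summed CPM (counts scaled by library size) of 9 bulge and basal markers between 11184 and 13691 in the PRC1 i2KO libraries and of 12034 and 12663 in the Control libraries. Krt15 and Krt5 carried most of that sum, and single markers differed more than it did. Cd34, a marker of the sort, was at 298.1, 292.1 and 164.5 CPM in PRC1 i2KO against 477.3 and 325.9 CPM in Control (log2 fold change -0.68 ± 0.27 SE, edgeR adjusted p = 0.422). Lhx2 and Lgr5 also lay below both Control libraries in every PRC1 i2KO library (-0.48 ± 0.17 and -0.44 ± 0.16 SE, adjusted p = 0.349 and 0.359), and the basal keratin gene Krt14 lay above both (0.70 ± 0.19 SE, adjusted p = 0.240). These 4 had an unadjusted p under 0.05, none of the 9 passed after adjustment, and their part in the members' values was not tested. Gene-level counts of the targeted gene did not separate the groups. Rnf2, which encodes Ring1b, was at 39.9, 33.1 and 36.4 CPM in PRC1 i2KO and at 27.7 and 37.5 CPM in Control (log2 fold change 0.16 ± 0.25 SE, edgeR adjusted p = 0.870). Its TPM values did not overlap and were lower in PRC1 i2KO, at 16.8, 12.9 and 11.7 against 25.1 and 24.4 in Control. On log2(TPM + 1) the median log2 fold change over all genes was also below 0, at -0.25. The size of the Rnf2 difference was not set against that median. Rnf2 thus overlapped between the groups in CPM and not in TPM, and the reason was not tested. Both measures pool deleted and retained exons and so do not check the labels.

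In these sorted cells all 5 Irx genes were already expressed in Control, and none of the 8 sine oculis and Iroquois genes passed the test for a difference in PRC1 i2KO. Irx2 was the most abundant, and its group means differed by less than the spread between libraries. Six2 was the member with the widest gap between groups, very low in Control and low in PRC1 i2KO, but its difference did not pass. The genes were tested with edgeR's quasi-likelihood test over 22181 genes, adjusted by the Benjamini-Hochberg method at a threshold of 0.05, and all 8 members passed the filter on low counts. Of the members 0 were called higher and 0 lower, against 0.126% of all tested genes called higher and 0% called lower. At an unadjusted p under 0.05, 1 member (Six2) was higher and 0 were lower, against 7.43% and 3.51% of all genes. DESeq2 also called 0 members, and of 30633 genes entered it called 754 higher and 166 lower. Limma-voom called 0 members, and of 22181 genes it called 4 higher and 0 lower. Limma on log2(TPM + 1) or log2(TPM + 0.1) tested 6 of the members, without Six2 and Six4, and called 0. Of 17191 genes it called 7 higher and 13 lower with a pseudocount of 1, and 7 higher and 1 lower with 0.1. Every PRC1 i2KO library lay above both Control libraries in 3 of 8 members (Six2, Six5 and Irx3), which 14.6% of the tested genes also did, and below both in 0 members, against 15.3% of the tested genes. A log2 fold change above 0 was seen in 5 of 8 members and in 50.4% of the tested genes. The members' median log2 fold change was 0.35, beside 0.01 over all genes tested.

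**Figure D1:**
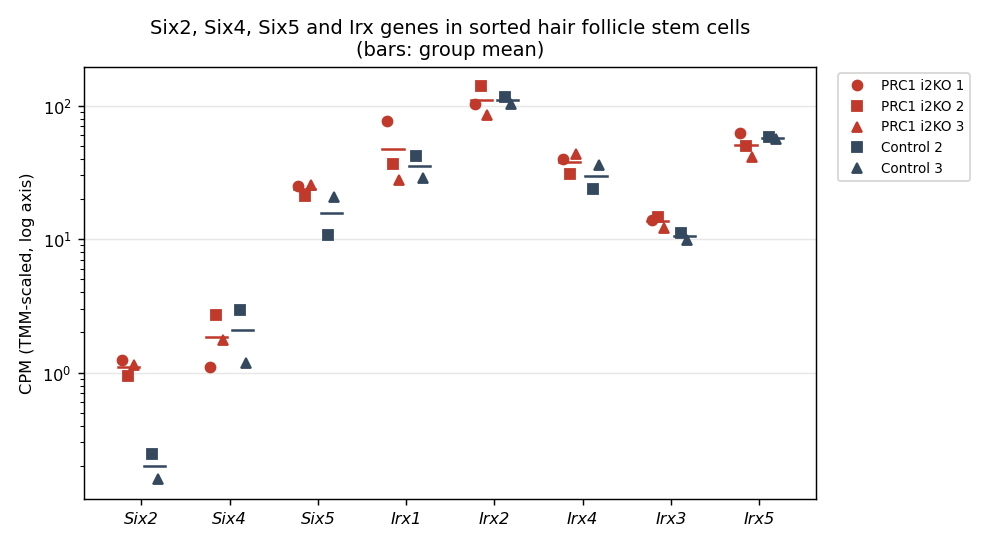
Level of each of the 8 genes in each library, in CPM with TMM-scaled library sizes on a log axis, with PRC1 i2KO libraries in red, Control libraries in dark blue and short bars at the group means. Six2 is the gene with the widest gap between the groups (1.11 CPM on average in PRC1 i2KO and 0.201 CPM in Control), and Irx2 is highest in both.

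Levels between genes are compared on the length-scaled TPM values of the deposited table. Irx2 averaged 81.4 ± 18.4 TPM in PRC1 i2KO (SD, n = 3) and 93.8 ± 45.0 TPM in Control (SD, n = 2). Of the 5 Irx genes' summed TPM, Irx2 alone made up 53.4%, 65.1% and 61.1% in PRC1 i2KO 1, 2 and 3, against 63.9% and 55.1% in Control 2 and 3. In each library at least 97.4% of all features had a lower TPM value than Irx2. Below it the order was Irx5, Irx1 and Irx4 in both groups, with Irx5 at 18.5 ± 3.52 TPM in PRC1 i2KO and 25.9 ± 6.35 TPM in Control. The libraries of Irx5 and Irx1 overlapped within each group, and so did those of Irx1 and Irx4, so the order of these neighbours is not resolved. Six5 (6.90 ± 0.350 TPM in PRC1 i2KO and 5.45 ± 1.30 TPM in Control) and Irx3 (4.39 ± 0.928 and 4.27 ± 1.27 TPM in PRC1 i2KO and Control) followed, apart in the PRC1 i2KO libraries and overlapping in the Control libraries. By point value, the last places changed between the groups. Six2 stood at 0.485 ± 0.0372 TPM in PRC1 i2KO and 0.114 ± 0.0513 TPM in Control. Six4 stood at 0.250 ± 0.137 TPM in PRC1 i2KO and 0.360 ± 0.275 TPM in Control. Six2 thus lay above Six4 in PRC1 i2KO and below it in Control, and their libraries did not overlap in either group. The margins were narrow, with Six2 no lower than 0.461 TPM and Six4 up to 0.4 TPM in PRC1 i2KO. In Control, Six2 reached 0.15 TPM and Six4 was no lower than 0.166 TPM. The Control values rest on 12 and 2 counts for Six2 and on 146 and 15 counts for Six4. Counting error was not set against these margins, so the order of Six2 and Six4 is not resolved either.

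**Figure D2:**
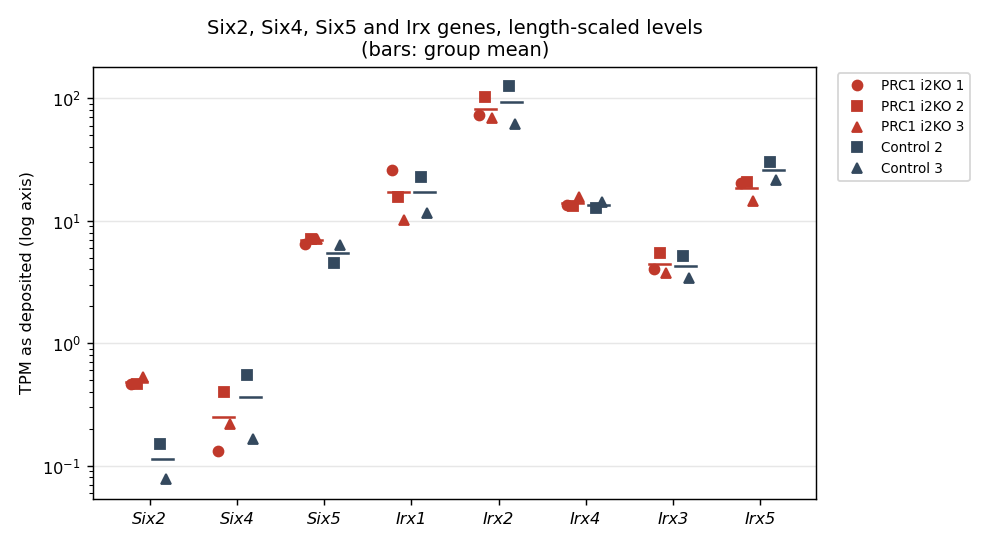
Deposited TPM of each gene in each library on a log axis, with PRC1 i2KO in red, Control in dark blue and bars at the group means. Irx2 stands above every other member in each library, Six2 and Six4 lie below 1 TPM in all 5, and the means of Irx1, Irx4 and Irx3 nearly coincide between the groups.

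Of the sine oculis family, Six2 (ENSMUSG00000024134.11), which keeps nephron progenitors of the mouse kidney undifferentiated, was at 1.24, 0.947 and 1.14 CPM in PRC1 i2KO 1, 2 and 3, against 0.244 and 0.159 CPM in Control 2 and 3. All 3 PRC1 i2KO libraries were higher than both Control libraries, and the groups did not overlap. These levels rest on 27, 42 and 36 counts in PRC1 i2KO and on 12 and 2 counts in Control. The 95% counting intervals reached down to 0.683 CPM in PRC1 i2KO 2, the lowest library of its group, and up to 0.573 CPM in Control 3, and intervals of this kind cover counting error only. The log2 fold change was 2.40 ± 1.05 (SE), with a 95% interval of 0.01 to 4.78, an unadjusted p of 0.0491 and an edgeR adjusted p of 0.454. Leaving out each library in turn gave log2 fold changes between 2.18 and 2.77, and none of these was called. Six2 and Six4 were the 2 members whose deposited counts were not whole within 0.01, so part of their reads was assigned by estimate.

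Six2 is also expressed by mesenchymal cells in the mouse. The summed level of fibroblast markers in all 3 PRC1 i2KO libraries exceeded that in both Control libraries, although 0 of the 6 markers that could be tested passed edgeR's threshold and 3 were higher at an unadjusted p under 0.05. The 13 fibroblast and dermal papilla markers in the table summed to 78.5, 77.6 and 58.7 CPM in PRC1 i2KO 1, 2 and 3, against 28.5 and 23.9 CPM in Control 2 and 3. Most of that difference lay in a few genes. Pdgfra, a growth factor receptor of fibroblasts, was at 32.5, 25.4 and 16.0 CPM in PRC1 i2KO and 3.37 and 2.22 CPM in Control (edgeR adjusted p = 0.0502). Col1a1, a collagen chain, was at 11.2, 19.7 and 7.88 CPM in PRC1 i2KO and 3.41 and 2.94 CPM in Control (adjusted p = 0.215). Vim was at 5.68, 1.74 and 6.42 CPM in PRC1 i2KO and 0.0203 and 0.555 CPM in Control (adjusted p = 0.287). These were the 3 with an unadjusted p under 0.05. Crabp1 was at 15.2, 9.50 and 3.07 CPM in PRC1 i2KO and 4.02 and 1.59 CPM in Control, with overlapping groups (adjusted p = 0.459). Col1a2, the marker of this list with the highest CPM in Control, was at 13.3, 20.3 and 20.8 CPM in PRC1 i2KO and 16.8 and 15.7 CPM in Control, with overlapping groups (log2 fold change 0.16 ± 0.32 SE, adjusted p = 0.910). Of the 13, 7 stayed below 1 CPM in every library, and Col3a1 was at 0, 0.271 and 0 CPM in PRC1 i2KO and at 0 CPM in both Control libraries. Dcn was at 0.0917, 0.158 and 3.13 CPM in PRC1 i2KO and at 0.162 and 0.0793 CPM in Control. The part of such cells in the Six2 values was not tested, and in bulk RNA a change in the number of cells of a type and a change in RNA per cell cannot be told apart.

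The 5 Merkel cell markers in the table summed to 16.9, 16.5 and 23.3 CPM in PRC1 i2KO against 2.03 and 2.06 CPM in Control. Piezo2 made up most of each of these sums, at 12.6, 14.5 and 17.0 CPM in PRC1 i2KO and 1.97 and 1.82 CPM in Control. Krt8 and Isl1, at lower levels, also lay above both Control libraries in every PRC1 i2KO library, while Krt18 and Krt20 did not. Interfollicular epidermis markers (7 genes) summed to 796.9, 2530 and 1343 CPM in PRC1 i2KO against 810.4 and 779.4 CPM in Control. All 7 had a positive log2 fold change, 4 of them with an unadjusted edgeR p under 0.05. In 3 of the 7 every PRC1 i2KO library lay above both Control libraries. Among these was Ly6a (Sca1), at 3.12, 4.78 and 4.93 CPM in PRC1 i2KO and 1.62 and 0.793 CPM in Control. Upper follicle and sebaceous markers (7 genes) summed to 1047, 603.4 and 682.7 CPM in PRC1 i2KO against 347.3 and 399.1 CPM in Control. Sums of melanocyte markers (5 genes) were 106.5, 127.1 and 82.5 CPM in PRC1 i2KO and 204.7 and 159.6 CPM in Control. Mitf made up most of each of these sums, at 102.4, 122.8 and 75.9 CPM in PRC1 i2KO and 195.6 and 152.6 CPM in Control. Dct, Tyr, Pmel and Tyrp1 each stayed at or below 4.05 CPM in every library. Immune cell markers (4 genes) summed to at most 9.77 CPM in PRC1 i2KO and 7.30 CPM in Control, and endothelial and mural markers (5 genes) to at most 22.8 and 19.0 CPM, with overlapping groups. No gene of these lists passed edgeR's threshold, and their part in the members' values was not tested.

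Six4 (ENSMUSG00000034460.9), which acts in the formation of skeletal muscle, was at 1.10, 2.68 and 1.77 CPM in PRC1 i2KO 1, 2 and 3, against 2.96 and 1.19 CPM in Control 2 and 3. Both groups spanned a similar range and overlapped. Its log2 fold change was -0.18 ± 0.79 (SE; 95% interval -1.96 to 1.61; edgeR adjusted p = 0.964), an interval of 0.257 to 3.05 times the Control level. The direction rested on single libraries, at 0.64 without Control 2 and 0.09 without PRC1 i2KO 1.

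Six5 (ENSMUSG00000040841.5) lies beside the myotonic dystrophy kinase gene Dmpk, and mice that lack it develop cataracts. It was at 24.8, 21.0 and 25.5 CPM in PRC1 i2KO 1, 2 and 3, against 10.8 and 20.6 CPM in Control 2 and 3. Control 2 was low, while Control 3 lay just under the lowest PRC1 i2KO library. The log2 fold change of 0.60 ± 0.34 (SE; 95% interval -0.17 to 1.38) did not pass (edgeR adjusted p = 0.579). It was 1.14 without Control 3 and 0.21 without Control 2, so its size depended on which Control library was used. Dmpk was at 8.52, 7.22 and 12.1 CPM in PRC1 i2KO and at 9.54 and 16.3 CPM in Control, with a log2 fold change of -0.47 ± 0.42 (SE; adjusted p = 0.749).

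Of the IrxA cluster, Irx2 (ENSMUSG00000001504.10), which in the mouse is expressed in the developing limb and lung among other tissues, was at 103.7, 139.7 and 84.6 CPM in PRC1 i2KO 1, 2 and 3, against 115.3 and 103.5 CPM in Control 2 and 3. The PRC1 i2KO libraries spread to both sides of the Control libraries. The means were 109.4 ± 28.0 CPM in PRC1 i2KO (SD, n = 3) and 109.4 ± 8.41 CPM in Control (SD, n = 2), and the 95% interval of the log2 fold change ran from -0.53 to 0.53 (edgeR adjusted p = 1.000). A fall below 0.691 times the Control level or a rise above 1.45 times it thus lay outside the interval. Transcript length, as implied by count over TPM, was divided by the gene's own geometric mean over the 5 libraries. It was then divided by each library's median of that ratio over genes. For Irx2 the result ranged from 0.840 to 1.12 in PRC1 i2KO and from 0.936 to 1.26 in Control. That spread was wider than the 0.993 to 1.01 of Irx4 over the 5 libraries.

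Irx1 (ENSMUSG00000060969.9), a regulator of lung and limb formation in the mouse, was at 77.2, 36.3 and 27.9 CPM in PRC1 i2KO 1, 2 and 3, against 42.3 and 28.8 CPM in Control 2 and 3. PRC1 i2KO 1 stood high, and the other PRC1 i2KO libraries lay within or just below the Control range. The log2 fold change was 0.40 ± 0.42 (SE; 95% interval -0.55 to 1.35; edgeR adjusted p = 0.790), and without PRC1 i2KO 1 it was -0.15. Irx4 (ENSMUSG00000021604.15), best known for its restriction to the ventricles of the heart, was at 40.0, 30.5 and 43.5 CPM in PRC1 i2KO against 23.8 and 36.0 CPM in Control. The groups overlapped, and the log2 fold change of 0.35 ± 0.28 (SE; 95% interval -0.30 to 0.99) did not pass (edgeR adjusted p = 0.721).

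Of the IrxB cluster, Irx5 (ENSMUSG00000031737.11), a regulator of cardiac repolarization in the mouse, was at 62.1, 49.7 and 41.3 CPM in PRC1 i2KO 1, 2 and 3, against 58.4 and 55.9 CPM in Control 2 and 3. Values in PRC1 i2KO lay on both sides of the Control values, and the log2 fold change was -0.16 ± 0.23 (SE; 95% interval -0.69 to 0.37; edgeR adjusted p = 0.860). Irx3 (ENSMUSG00000031734.13), which acts in the ventricular conduction system of the mouse heart, was at 13.9, 14.7 and 12.1 CPM in PRC1 i2KO against 11.2 and 9.92 CPM in Control. Its groups did not overlap, by a margin of less than 1 CPM between Control 2 and PRC1 i2KO 3, and the log2 fold change of 0.36 ± 0.34 (SE; 95% interval -0.41 to 1.13) did not pass (edgeR adjusted p = 0.766). In TPM the Irx3 groups did overlap, at 4.01, 5.45 and 3.72 TPM in PRC1 i2KO and 5.17 and 3.38 TPM in Control. Irx3 was the single member that overlapped another gene in the reference annotation, the antisense transcript Irx3os, at 2.57, 5.12 and 1.93 CPM in PRC1 i2KO and 0.934 and 5.0 CPM in Control. The sources used here do not state whether strand entered the counting, so reads of Irx3 and Irx3os may not be fully separated.

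By point value, the Irx genes of a cluster did not share a highest library. In CPM, within the IrxA cluster Irx1 was highest in PRC1 i2KO 1, Irx2 in PRC1 i2KO 2 and Irx4 in PRC1 i2KO 3. Within the IrxB cluster Irx5 was highest in PRC1 i2KO 1 and Irx3 in PRC1 i2KO 2, also in CPM. For Irx4, Irx5 and Irx3 the 95% counting intervals of the highest and the next library overlapped, so their highest library is not resolved. In TPM both Irx2 and Irx5 were instead highest in Control 2, at 125.6 and 30.4 TPM. The IrxA genes summed to 112.3, 131.3 and 94.5 TPM in PRC1 i2KO against 161.2 and 87.7 TPM in Control, and the IrxB genes to 24.2, 26.2 and 18.1 TPM in PRC1 i2KO against 35.6 and 24.8 TPM in Control. Both sums overlapped between the groups.

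Gene patterns most like those of the 3 members with the highest mean CPM were sought by the smallest Euclidean distance between centred log2(CPM + 0.5) values over the 5 libraries. Nearest to Irx2 were Coq8b, Xpnpep3 and Sec62 (distances 0.0781, 0.0920 and 0.0968), and nearest to Irx5 were Gm43847, Angptl2 and Ctdsp2 (0.0404, 0.0890 and 0.0899). Nearest to Irx1 were Pfdn6, Mccc2 and Polr2g (0.143, 0.223 and 0.240), of which Pfdn6 also peaked in PRC1 i2KO 1, at 11.5 CPM beside 4.67 and 3.57 CPM in the other PRC1 i2KO libraries and 6.15 and 4.05 CPM in Control. With 5 libraries and 22181 genes, close profiles are common, and no test was made of them.

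Promoter windows came from RefSeq on build GRCm38.p6 and ran from 250 bases before to 50 bases after the gene start. They were matched to 6 of the 8 members, all but Irx1 and Irx5, with 2 windows for Six4. The submitters' notes name build mm39 for the deposited table, so the coordinates here belong to the sequence table only. The windows are shown because CpG-rich promoters are the ones that Polycomb complexes occupy in embryonic stem cells, and Six2 and Irx2 are the members with the widest gap between groups and the highest level. The Six2 window (chr17, minus strand, chr17:85688205-85688504) held 37 CpG dinucleotides, a number that 5.58% of all 32841 windows reached. The Irx2 window (plus strand, chr13:72628570-72628869) held 25, reached by 18.4% of all windows. Capitals mark each CpG in both.
Six2: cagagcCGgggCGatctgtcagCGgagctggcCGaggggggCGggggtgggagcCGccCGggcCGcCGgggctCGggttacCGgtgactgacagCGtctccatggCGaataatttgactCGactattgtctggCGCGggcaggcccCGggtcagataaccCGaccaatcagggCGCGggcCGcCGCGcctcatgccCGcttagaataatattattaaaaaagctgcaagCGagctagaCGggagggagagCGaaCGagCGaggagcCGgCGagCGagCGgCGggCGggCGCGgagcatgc
Irx2: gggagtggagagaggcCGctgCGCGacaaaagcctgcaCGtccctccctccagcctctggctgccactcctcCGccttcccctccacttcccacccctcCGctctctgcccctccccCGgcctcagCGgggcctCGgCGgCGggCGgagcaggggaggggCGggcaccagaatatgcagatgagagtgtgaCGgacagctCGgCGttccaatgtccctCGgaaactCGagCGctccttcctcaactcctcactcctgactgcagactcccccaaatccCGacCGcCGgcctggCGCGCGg

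The other windows held 31 CpG dinucleotides for Irx4, 17 for Six5, 16 and 15 for the overlapping pair of Six4 and 14 for Irx3, against a median of 7 and an upper quartile of 20 over all windows. Members with abundant RNA (Irx2 and Irx4) and the nearly silent Six2 were thus alike in holding more CpG than the upper quartile. Six4, also low in RNA, and the expressed Six5 and Irx3 held less than it. Irx1 and Irx5 had no window. The windows were also searched on both strands for ACANNTGT, a palindromic site bound by Iroquois proteins in Drosophila, for TCAGGTTTC, the MEF3 site bound by sine oculis proteins, and for TATAAA. ACANNTGT occurred in 0 of the 7 windows and in 7.37% of all windows, and TATAAA in 0 of the 7 and in 13.6% of all. A TCAGGTTTC match lay on the opposite strand of 1 Six4 window (minus strand, chr12:73113196-73113495), where 0.429% of all windows hold the motif. It is shown in capitals, and it overlapped no other motif searched. Such a match describes letters and not binding.
Six4: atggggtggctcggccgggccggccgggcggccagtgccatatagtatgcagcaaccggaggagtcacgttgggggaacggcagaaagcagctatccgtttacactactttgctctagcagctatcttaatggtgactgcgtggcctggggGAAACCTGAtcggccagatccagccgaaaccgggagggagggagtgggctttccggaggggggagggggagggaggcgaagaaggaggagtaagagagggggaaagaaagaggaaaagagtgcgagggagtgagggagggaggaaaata

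**Figure D3:**
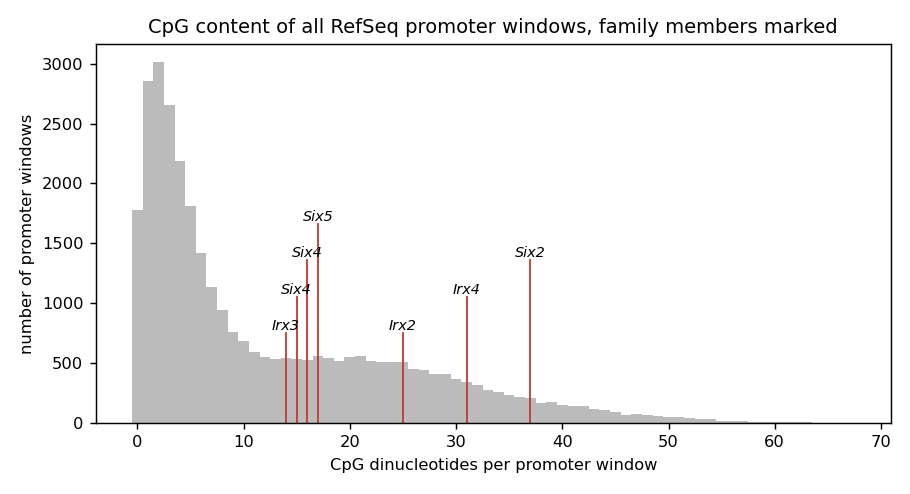
Number of CpG dinucleotides in each RefSeq promoter window (x axis) against the number of windows (y axis, grey bars), with red lines at the windows of the members. Six2 (37) and Irx4 (31) stand farthest to the right, and all 7 marked windows lie above the median of 7.

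For cofactors of the sine oculis proteins and the other TALE homeobox genes together, the median log2 fold change was 0.08 over 16 tested genes, of 17 in the table, with 0 higher and 0 lower by edgeR. Of the 5 tested cofactors, 2 had a positive and 3 a negative log2 fold change, with a median of -0.40. The coactivator gene Eya1 was at 8.20, 11.2 and 10.7 CPM in PRC1 i2KO against 1.85 and 6.66 CPM in Control, a log2 fold change of 1.26 ± 0.60 (SE; adjusted p = 0.490), and its groups did not overlap. Eya3, the most abundant of the list, was at 25.9, 28.6 and 30.6 CPM in PRC1 i2KO against 45.4 and 29.1 CPM in Control (-0.40 ± 0.27 SE, adjusted p = 0.650). Eya2 had a log2 fold change of 0.52 ± 0.40 (SE; adjusted p = 0.705). Dach2 stayed at or under 0.159 CPM in every library and was not tested.

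Of the 11 other TALE genes analysed, 7 had a positive and 4 a negative log2 fold change, and the median was 0.11. Meis2, a partner of HOX proteins, was at 20.0, 18.4 and 23.4 CPM in PRC1 i2KO against 4.06 and 6.11 CPM in Control. All 3 PRC1 i2KO libraries lay above both Control libraries, yet the log2 fold change of 2.03 ± 0.37 (SE) did not pass (edgeR adjusted p = 0.113), while DESeq2, edgeR with no filter on low counts and edgeR with a block by title number called it higher. Meis3 was at 6.37, 1.44 and 2.28 CPM in PRC1 i2KO and 0.589 and 0.635 CPM in Control (2.45 ± 0.92 SE, adjusted p = 0.374). Pknox2 was at 8.89, 26.5 and 9.84 CPM in PRC1 i2KO and 23.0 and 36.7 CPM in Control, with overlapping groups (-0.98 ± 0.48 SE, adjusted p = 0.512). Tgif1, a corepressor of SMAD signalling and the most abundant of these 11 genes in CPM, was at 47.0, 68.0 and 63.7 CPM in PRC1 i2KO and 62.0 and 57.6 CPM in Control, also with overlapping groups (-0.01 ± 0.23 SE, adjusted p = 0.997). Whether the members differ from these lists was not tested.

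**Figure D4:**
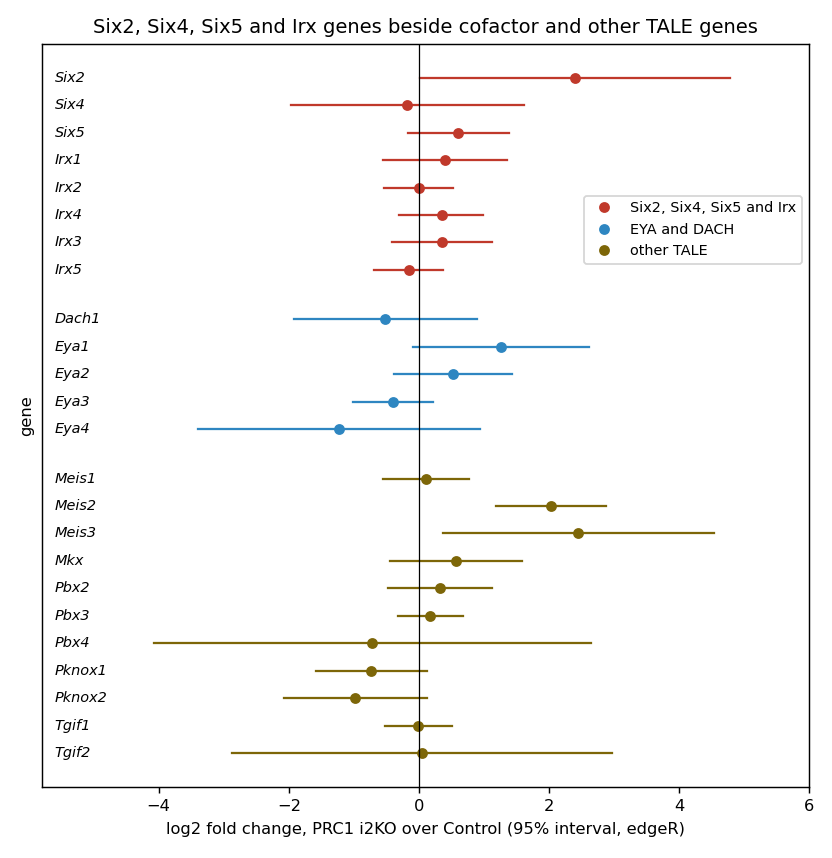
Log2 fold change of PRC1 i2KO over Control with its 95% interval from edgeR for the 8 members (red), the tested EYA and DACH cofactor genes (blue) and 11 other TALE homeobox genes (brown). The intervals of 7 of the 8 members cross 0, that of Six2 starts at 0.01, and those of Meis2 and Meis3 lie off 0 without passing after adjustment.

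Genes that flank the members gave no call either, with 0 higher and 0 lower of 21 tested, of 22 in the table, and a median log2 fold change of 0.05. Around the IrxA cluster the 3 genes with the smallest p were Mrpl36 (0.67 ± 0.41 SE, adjusted p = 0.607), Ndufs6 (0.40 ± 0.28 SE, 0.667) and Ice1 (0.21 ± 0.19 SE, 0.740), and Ice1 was the most abundant at 81.9 ± 4.35 CPM in PRC1 i2KO (SD, n = 3) and 70.6 ± 0.586 CPM in Control (SD, n = 2). Around the IrxB cluster they were the transporter gene Slc6a2 (0.68 ± 0.42 SE, adjusted p = 0.610), the metalloproteinase gene Mmp2 (0.73 ± 0.47 SE, 0.630) and Lpcat2 (-0.20 ± 0.23 SE, 0.814). Fto, the demethylase gene whose introns hold enhancers that act on Irx3, was at 46.8, 39.6 and 39.4 CPM in PRC1 i2KO and 40.7 and 40.5 CPM in Control, and Capns2 was the most abundant at 55.6, 87.7 and 66.5 CPM in PRC1 i2KO and 80.1 and 64.3 CPM in Control. Of the genes near Six2, Camkmt had a log2 fold change of -0.83 ± 0.65 (SE; adjusted p = 0.709) and Srbd1, next to Six2 on its other side among the listed genes, 0.48 ± 0.43 (SE; 0.748), so the gap seen for Six2 had no counterpart of that size in either. Near Six5, Sympk had a log2 fold change of -0.32 ± 0.26 (SE; adjusted p = 0.729), and near Six4, Slc38a6, the most abundant of these neighbours, one of -0.07 ± 0.24 (SE; 0.952).

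**Figure D5:**
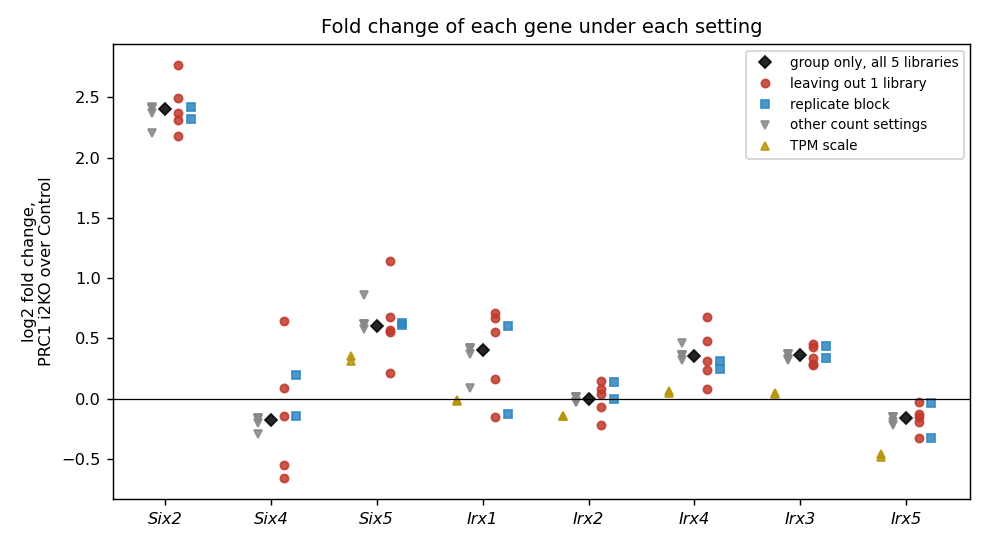
Log2 fold change of each gene under the fit with group only on all 5 libraries (black), leaving out 1 library (red), with a replicate block (blue), on the TPM scale (gold) and under other count settings (grey). Six2 stays between 2.18 and 2.77 where it was tested, Irx2 stays within 0.22 of 0, and Six4 and Irx1 fall on both sides of 0.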

How the data were processed

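For each gene and library the authors deposited 2 values, an expected count and a TPM. Tools named in the submitters' processing notes, without roles, are DESeq2 1.38.2, RSEM 1.3.3 and STAR 2.7.9a, with build mm39. The deposited expected counts are not normalized, and 51.7% were not whole within 0.001, so they were rounded. The deposited TPM values are scaled for length and library by the authors. Libraries were grouped by genotype from their titles, whose numbers are used here. Nothing in the labels says that the samples of a group are separate animals, and p-values then measure only a spread between samples that may be technical.

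The main test was edgeR's quasi-likelihood F test (version 4.0.16, R 4.3.3) with TMM scaling, filterByExpr and a design of group alone, over 22181 genes. CPM values use TMM-scaled library sizes, and 1 count stood for between 0.0203 and 0.0793 CPM. Fold changes are PRC1 i2KO over Control, SE was derived from the F statistic, and intervals use a t distribution with 8.92 degrees of freedom. DESeq2 1.42.0 and limma 3.58.1 were alternatives. Counting intervals are exact Poisson (95%). With 3 libraries against 2, an exact permutation test of a single gene cannot give a two-sided p below 0.2, so none is reported.

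Members and lists were chosen with earlier results of these data known. Named genes are all members, the 3 tested genes nearest in pattern to each of the 3 most abundant members, and in the cofactor, TALE and neighbour lists the 3 genes with the smallest p and the most abundant one. 1 gene of the TALE list is not reported here and was left out of that list's counts, median and named genes. Irx3os, Dmpk, Fto, Dach2 and the cell type markers named singly were chosen after their values were seen, and the marker lists are otherwise given as sums. GENCODE M21 (GRCm38) was used for overlaps and gene order. Listed genes outside the table were not analysed here.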

Additional observations from a re-analysis of the deposited data

How the results depend on the processing

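None of the 8 members was called under any of the 14 alternatives, and neither were the chromosomal neighbours. Among cofactor and other TALE genes, 1 (Meis2) was called higher by DESeq2, with no filter on low counts and with the block by title number. Over all genes, against 28 higher and 0 lower, there were 140 and 12 with no filter, 754 and 166 by DESeq2, 4 higher by limma-voom, 7 and 13 by limma on log2(TPM + 1), 7 and 1 on log2(TPM + 0.1), and 42 and 3 with at least 1 CPM in 2 libraries. Leaving out each library in turn gave 4 to 39 higher (4 without Control 2, 8 without Control 3, 8 without PRC1 i2KO 1 and 14 without PRC1 i2KO 3) and 0 to 4 lower. The cause was not tested.

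Six2, Six5, Irx3, Irx4 and Irx5 kept their direction wherever they could be fitted. Six2 and Six4 did not reach 1 TPM and have no value on the TPM scale, where the median over all genes was -0.25 with a pseudocount of 1 and -0.31 with 0.1. There Irx1 was at -0.01 and -0.02 as fitted, and at 0.23 and 0.29 relative to that median, and Irx2 at -0.14 under both as fitted, and at 0.11 and 0.17 relative to it. Irx2, at -0.0007 with group only, was at 0.01 with DESeq2 size factors, with no filter and by DESeq2. Leaving out each library gave -0.22 to 0.15 for Irx2, -0.15 to 0.71 for Irx1 and -0.66 to 0.64 for Six4.

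The sample titles number the controls 2 and 3 and the descriptions 1 and 2. Deviations from group means correlated at 0.0827 and 0.0545 by title and at -0.0292 and -0.0827 by description. With 2 Control libraries the deviations of one mirror those of the other, so these values cannot decide whether samples were paired. A replicate block by title number gave 140 genes higher and 25 lower, with Six4 at 0.20 and Irx1 at -0.13, and a block by description number gave 10 higher, with Irx2 at 0.14. With 2 Control libraries, of which Control 3 was the shallowest, differences for Six2 and Six4 rest on few counts.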
